A study of Zea mays with 18 samples.

Results

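Shoots of iron-deprived maize plants that had iron back for 1 day were compared with shoots of plants that never lacked it, as 3 RNA-seq libraries titled for iron resupply against 3 titled for sufficient iron, 6 of the 18 libraries in the series. All plants were wild-type W22, a maize (Zea mays) inbred line, grown hydroponically for 12 days. Resupplied plants then had no iron for 3 days and 0.1 mM FeSO4-EDTA for the last 24 hours. Deficient plants, used here as a second point of reference, had no iron throughout those days, and sufficient plants had iron throughout. Deficient and sufficient plants were given fresh solution when the resupplied ones were, so a change of solution is common to all groups. Each group has 3 biological replicates per organ, and the labels do not say how many plants went into a library. The shoot was sampled whole, so in every result below fewer cells of a type and less RNA per cell cannot be told apart.

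Iron in leaves is bound mainly in the chloroplast, where iron-sulfur clusters and haem carry electrons through the photosystems, the cytochrome complex and ferredoxin, and where chlorophyll synthesis also needs iron. Grasses such as maize take iron up by secreting phytosiderophores from the root and importing the iron complex through transporters of the yellow stripe family. Iron then reaches the shoot bound to citrate and nicotianamine, and shoots store spare iron in ferritin. Young leaves that lack iron turn pale. The comparison asks what of deficiency remains, and what is new, 1 day after iron returns.

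The files give identifiers of one gene series only (Zm00004b numbers) and do not pair them with gene names. None of them, 0 of 40690, occurs among the 49888 genes of the B73 reference table at hand, so no gene can be assigned a function here and no sequence is shown. Genes are therefore described by how they behaved, by their abundance and by the organ that expresses them, and 4 identifiers are given as examples. Shoot libraries held 69390438 to 84318039 estimated counts each, and root libraries 63058129 to 78431980. Genes that prefer shoots, chosen on the deficient libraries of both organs, give a check of the organ labels in the other libraries. They made up 29.6 to 37.9% of counts in the 6 shoot libraries compared, and 0.719 to 1.01% in the resupplied and sufficient root libraries. Sufficient root library 3 had the 1.01%.

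Resupplied shoots still differed from sufficient shoots after 1 day of iron. Of 26318 genes tested, 2504 or 9.51% were called different, 1065 (4.05%) higher and 1439 (5.47%) lower in resupplied than in sufficient shoots. "Higher", "lower", "rose", "fell" and "called" refer throughout to edgeR's quasi-likelihood test with a Benjamini-Hochberg adjusted p under 0.05 on TMM-scaled counts, and a positive log2 fold change means more in resupplied shoots. CPM stands for counts per library total, with each total multiplied by the library's TMM factor, so the CPM values of a library do not sum to a fixed number. Over 22832 genes with at least 1 CPM, the root-mean-square log2 difference between a resupplied and a sufficient library was 0.351 to 0.460. Between deficient and sufficient libraries it was 0.352 to 0.412. Within groups it was 0.295 to 0.319 among resupplied and 0.340 to 0.351 among sufficient libraries.

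Most of these differences were small. The median log2 fold change was 0.46 for the genes that were higher and -0.52 for those that were lower, and 66.0% of the called genes differed by less than 1.5-fold. At least a 2-fold difference was reached by 66 higher and 130 lower genes, which are 0.251 and 0.494% of the genes tested (0.745% together). Among these, 6 of the higher genes had 0 counts in all 3 sufficient libraries and 5 of the lower genes had 0 in all 3 resupplied libraries, so the fitted fold of such genes is no measure of size. Leaving them out, 12 genes rose and 4 fell by at least 4-fold. The CPM values of the 2 groups did not overlap for 1057 of the 1065 higher genes and 1431 of the 1439 lower genes. Over all 26318 genes tested they did not overlap for 7342 (27.9%), 3478 higher and 3864 lower in resupplied shoots. The calls rest on the same values, which favours this, so it adds no evidence for them.

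**Figure D1:**
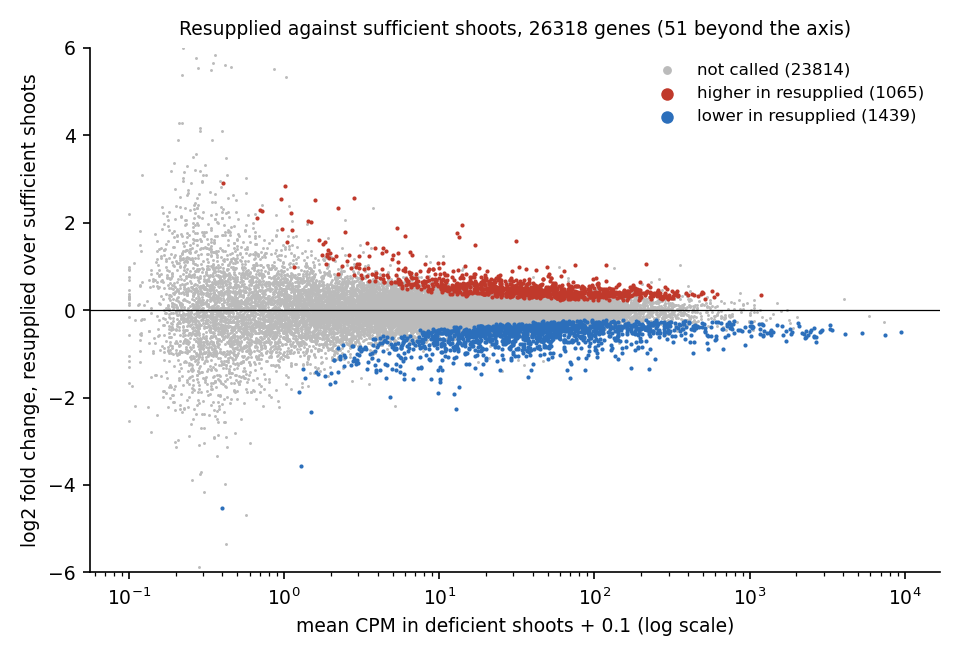
Log2 fold change of resupplied over sufficient shoots (vertical axis) against mean CPM in deficient shoots plus 0.1 (horizontal axis, log scale) for the 26318 genes tested, with the 1065 higher genes in red and the 1439 lower genes in blue. At the right end, among the most abundant genes, the called points are mostly blue. Of all genes, 51 lie beyond the vertical axis limits of -6 and 6.

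The total and the balance of directions depend on scaling and on single libraries. With total counts in place of TMM the median of all genes shifts by 0.101 log2 units, 2426 genes are higher and 952 lower, and the lower share of calls is 28.2% against 57.5%. All 1065 higher genes stayed higher on that scale, and 952 of the 1439 lower ones stayed lower with the rest not called. Calls numbered 1471 when resupplied library 2 was left out and 1102 for library 3. They numbered 1334 when sufficient library 1 was left out and 1456 for library 3. Without sufficient library 2 they numbered 3032, with 1490 higher and 1542 lower. The 2-fold count was 129 without resupplied library 3, with 38 higher and 91 lower, and with total-count scaling it was 110 higher and 87 lower.

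What remained of deficiency and what was new with resupply were separated by the other 2 shoot contrasts of the same fit. A gene is called remaining if it also differed the same way between deficient and sufficient shoots. It is called new if it was not called in deficiency but differed the same way between resupplied and deficient shoots. It is called opposite if deficiency had changed it the other way. Between deficient and sufficient shoots 5.70% of genes were called, 1.26% higher and 4.44% lower in deficient plants. Between resupplied and deficient shoots 8.58% were called, 4.86% higher and 3.72% lower in resupplied plants. With total-count scaling both balances turned, to 3178 higher and 630 lower in deficient and to 883 higher and 1571 lower in resupplied plants. These contrasts share libraries with the main one, so the class sizes and the medians beside them are a description and carry no test of their own. Of the 2504 genes, 500 (20.0%) were remaining, 787 (31.4%) new and 40 (1.60%) opposite, and 1177 (47.0%) fell in none of these.

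On the TMM scale the remaining genes were mostly lower ones. They comprised 127 of the 1065 higher genes (11.9%) and 373 of the 1439 lower genes (25.9%). The 373 had a median log2 difference from sufficient shoots of -0.50 in resupplied and -0.55 in deficient plants. For 72 of them the return from deficiency to resupply was itself called, for 27 a further fall was called, and for 274 neither was. By their means, 218 stood closer to sufficient shoots after resupply than in deficiency and 155 farther. Their summed level was 174781 ± 8929 CPM in resupplied, 145507 ± 5687 in deficient and 246730 ± 12574 in sufficient shoots (SD, n = 3). The difference of -71949 CPM between resupplied and sufficient shoots is most of the -100395 CPM that all 1439 lower genes sum to. Divided by total counts alone, the same differences were -49252 and -68542. Of the 373 genes, 217 prefer shoots, as do 445 of all 1439 lower genes and 1525 of the 26318 genes tested. The 127 higher genes had medians of 0.59 in resupplied and 0.46 in deficient plants, and by their means 33 stood closer to sufficient shoots after resupply than in deficiency and 94 farther. The step between resupplied and deficient shoots was called for few of them, as a return for 2 and a further rise for 1, and for 124 neither was called. Leaving out sufficient library 2 made the remaining genes 363 higher and 411 lower. Leaving out deficient library 2 made them 33 higher and 231 lower, and total-count scaling made them 1225 higher and 185 lower.

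On the TMM scale and by their medians, the new genes stood near the sufficient level in deficient plants and away from it in resupplied ones. Their definition favours this, but it asks only for no call in deficiency and not for an equal level. The 497 lower ones had a median log2 difference from sufficient shoots of -0.62 in resupplied and -0.01 in deficient plants. Their summed level was 30805 ± 1462 CPM in resupplied, 44643 ± 877 in deficient and 44797 ± 2389 in sufficient shoots (SD, n = 3). The 290 higher ones had medians of 0.40 in resupplied and -0.03 in deficient plants, and summed levels of 43045 ± 761 CPM in resupplied, 31971 ± 752 in deficient and 32834 ± 2130 in sufficient shoots (SD, n = 3). Divided by total counts alone, the 497 summed to 27664 ± 928 in resupplied, 42161 ± 1145 in deficient and 37439 ± 1307 in sufficient shoots. The 290 summed to 38679 ± 1233, 30188 ± 565 and 27453 ± 1743 in the same order. By these means deficient plants stood above sufficient ones in both sets. New genes also made up 68 of the 130 genes lower by at least 2-fold and 23 of the 66 higher by as much, where remaining ones made up 26 and 13. By definition, opposite genes lay on the other side of the sufficient level in deficient plants. The 27 lower ones had medians of -0.62 in resupplied and 0.76 in deficient plants, and the 13 higher ones 0.49 in resupplied and -0.74 in deficient plants. The 1177 genes outside these classes had intermediate levels in deficient plants, with medians of 0.46 in resupplied and 0.26 in deficient plants for the 635 higher ones, and -0.46 and -0.24 for the 542 lower ones. Their exclusion from the other classes favours this.

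**Figure D2:**
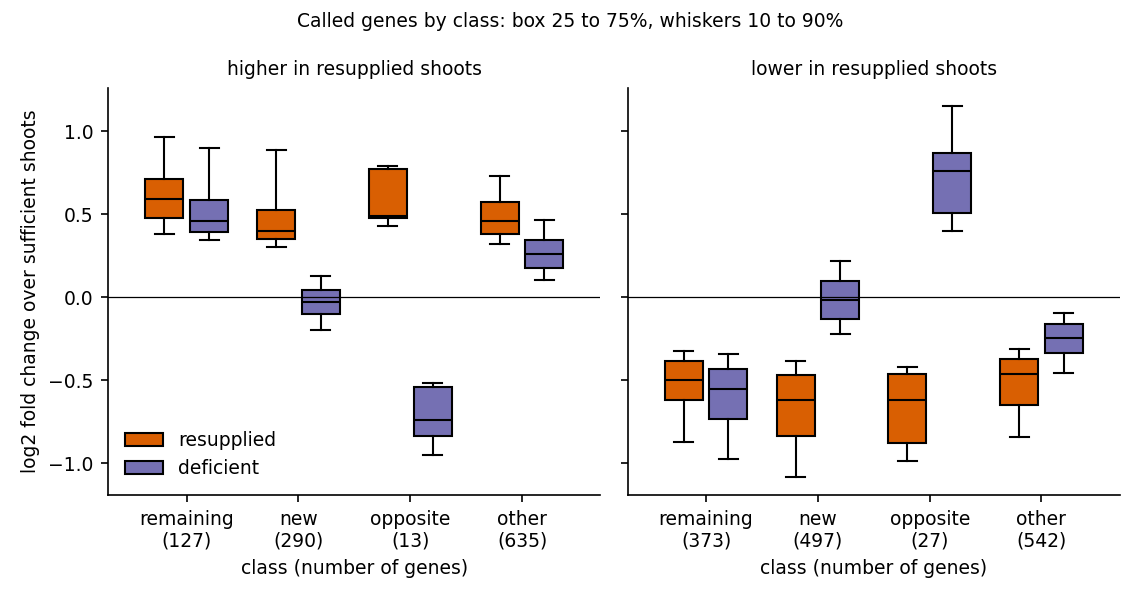
Log2 fold change over sufficient shoots (vertical axis) of the called genes by class (horizontal axis, number of genes in brackets), in resupplied plants in orange and deficient plants in purple, for genes higher (left) and lower (right) in resupplied shoots. Boxes span the middle 50% of genes and whiskers 10 to 90%; the purple boxes of the new class straddle 0, with medians of -0.03 and -0.01.

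The sizes of both classes depend on scaling and on the libraries. With total-count scaling there were 1410 remaining genes and 781 new ones, and of the new ones 304 were higher and 477 lower. Remaining genes numbered 222, 774 and 264 when sufficient library 1, 2 or 3 was left out, with 44, 363 and 38 of them higher. They numbered 310, 264 and 284 when deficient library 1, 2 or 3 was left out, with 48, 33 and 38 higher. For resupplied libraries 2 and 3 they numbered 318 each, with 63 and 77 higher. New genes numbered 470 without deficient library 1, 446 without resupplied library 2 and 342 without resupplied library 3. Calls between deficient and sufficient shoots numbered 882, 883 and 807 when deficient library 1, 2 or 3 was left out, and 846 and 920 for sufficient libraries 1 and 3. Calls between resupplied and deficient shoots numbered 1408 and 1460 for resupplied libraries 2 and 3, and 1272 and 1418 for deficient libraries 1 and 3.

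On the TMM scale, differences were called more often among abundant genes, and the excess of lower over higher genes was largest in the most abundant ones. Over all genes, total-count scaling gave 2426 higher and 952 lower. Genes were ranked by CPM in the deficient libraries, which the contrast does not use; CPM is not corrected for gene length, so the rank is one of mRNA signal. The ranked genes were cut into 10 groups of equal size. In the group with the most signal, from 80.1 to 9471 CPM, 16.6% were lower and 10.1% higher, and the median log2 fold change of the whole group was -0.01. In the middle of the range, from 14.2 to 21.0 CPM, the shares were 5.51 and 4.33%, and from 2.18 to 4.998 CPM they were 2.24 and 1.56%. The standard error of the log2 fold change had a median of 0.08 in the first of these 3 groups, 0.12 in the second and 0.25 in the last, so a given difference was easier to call in abundant genes.

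**Figure D3:**
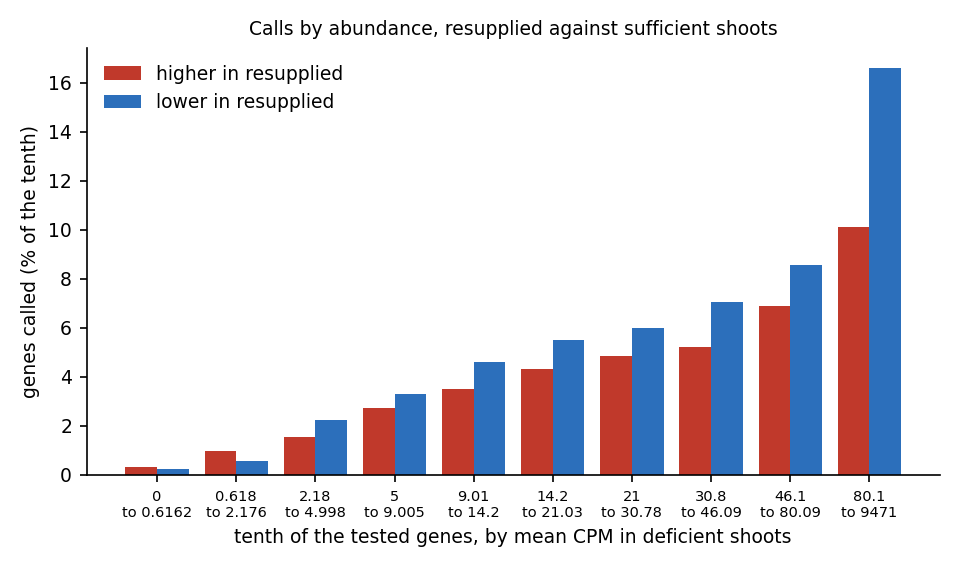
Share of genes called higher (red) or lower (blue) in resupplied than in sufficient shoots (vertical axis, % of the group) in 10 equal groups of the 26318 tested genes ordered by mean CPM in deficient shoots (horizontal axis, CPM range of each). Both shares are highest in the last group, at 10.1 and 16.6%.

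The 100 genes with the most signal took a smaller part of the counts in the resupplied than in the sufficient shoot libraries. They held 18.9, 18.6 and 17.8% of counts in the 3 resupplied libraries, 17.6, 17.9 and 17.3% in the deficient ones and 23.1, 22.03 and 22.2% in the sufficient ones. Every resupplied library lay below every sufficient one, and the means of 18.4 ± 0.54 and 22.5 ± 0.59% (SD, n = 3) differed by -4.02 percentage points. The exact two-sided permutation test gave p = 0.1, the smallest that 3 against 3 libraries allow. Of the 100 genes, 60 were lower and 1 higher, with a median log2 fold change of -0.38, against 5.47 and 4.05% and a median of 0.00 over all genes tested. Scaled to total counts, 54 of them were lower and 4 higher. Their median was negative in resupplied over sufficient roots too, at -0.43.

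Within this group, most of the genes that prefer shoots were lower. Shoot-preferring genes are those with at least 10 CPM in deficient shoots and at least 8 times their level in deficient roots, after adding 0.1 CPM. Of the 74 shoot-preferring genes among the 100, 56 were lower and 0 higher, with a median log2 fold change of -0.46. They held 14.9 ± 0.63% of counts in resupplied and 19.1 ± 0.75% in sufficient shoots (SD, n = 3), with ranges of 14.1 to 15.3% and 18.5 to 19.9%. Of the other 26 genes, 4 were lower and 1 higher, with a median of 0.00, and they held 3.57 ± 0.11 and 3.38 ± 0.15% of counts in those groups (exact permutation p = 0.2, two-sided, n = 3). Whether the 2 sets differ was not tested.

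Of the 1451 shoot-preferring genes outside the 100, 389 were lower and 28 higher, with a median log2 fold change of -0.18. Whether this differs from the 74 was not tested. Over all genes tested, 5.47% were lower and 4.05% higher, and 50% lay below the sufficient level. Of 1525 shoot-preferring genes in all, 445 (29.2%) were lower and 28 (1.84%) higher, with a median log2 fold change of -0.20, and 74.3% of them lay below the sufficient level. Scaled to total counts, 333 of them were lower and 80 higher. Of the 445, 18 were lower by 2-fold or more. The 1451 outside the 100 held 16.1 ± 0.59% of counts in resupplied and 17.5 ± 0.46% in sufficient shoots (SD, n = 3). Together the 1525 held 31.8, 31.6 and 29.6% in the resupplied, 29.7, 29.7 and 28.4% in the deficient and 37.9, 35.6 and 36.1% in the sufficient libraries, and again no resupplied library reached a sufficient one (exact permutation p = 0.1, two-sided, n = 3). The 445 became 268 without resupplied library 3 and 290 without sufficient library 1. As to their classes, 217 of the lower shoot-preferring genes were remaining and 119 new.

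Genes that prefer roots, by the same rule turned round, gave few calls. Of 880 tested, 14 were higher and 12 lower, or 1.59 and 1.36%, with a median of 0.02, against 4.05 and 5.47% over all genes tested. Calls were fewer at low signal, and by rule root-preferring genes have less signal in shoots than in roots. The part of low signal in the few calls of root-preferring genes was not tested. Their share of shoot counts was 0.421, 0.415 and 0.456% in the resupplied, 0.424, 0.420 and 0.433% in the deficient and 0.360, 0.374 and 0.415% in the sufficient libraries. The resupplied and sufficient values overlap (exact permutation p = 0.2, two-sided, n = 3), and the part of any root RNA in the shoot results was not tested. Genes with at least 10 CPM in both organs that prefer neither formed another set, of 12041. Of these, 771 (6.4%) were higher and 663 (5.51%) lower, with a median of 0.02, but with total-count scaling 1812 were higher and 390 lower.

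**Figure D4:**
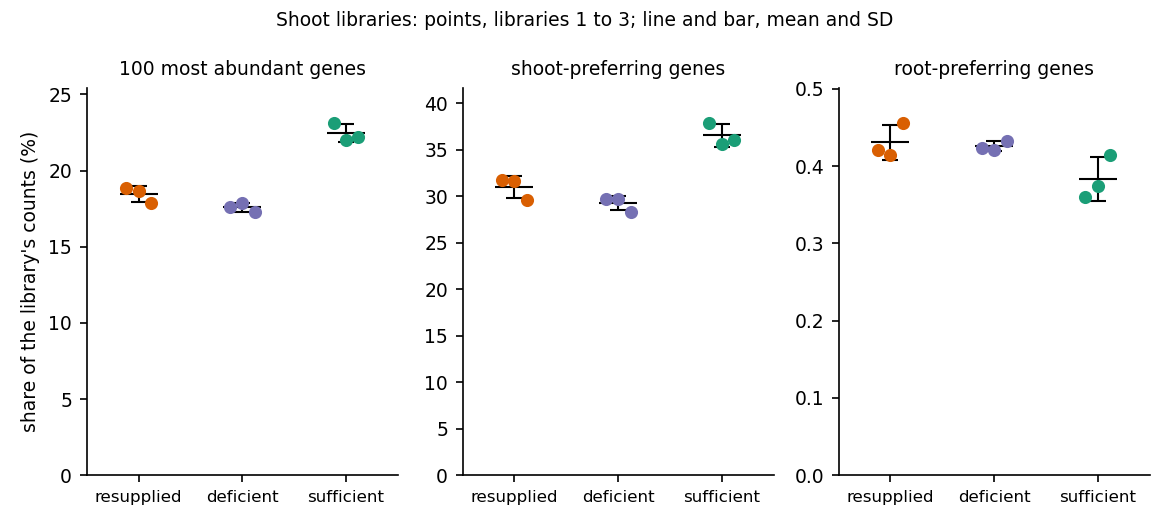
Share of each shoot library's counts (vertical axes, %, from 0) held by the 100 most abundant genes, by 1525 shoot-preferring genes and by root-preferring genes in resupplied, deficient and sufficient plants (horizontal axes); points are libraries, lines and bars the mean and SD. In the first 2 panels all resupplied libraries lie below all sufficient ones, and in the last the values overlap.

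Fewer genes made up the summed difference of the lower genes than that of the higher genes. The 1439 lower genes summed to 246742 ± 12608 CPM in resupplied, 239750 ± 6903 in deficient and 347137 ± 17820 in sufficient shoots (SD, n = 3), a difference of -100395 CPM between resupplied and sufficient plants. Of this, 10 genes made up 22.8% and 37 genes 50%. The 1065 higher genes summed to 87198 ± 2398 CPM in resupplied, 70872 ± 1526 in deficient and 65703 ± 4344 in sufficient shoots. Their 10 largest contributors made up 7.43% of the gain, and 160 genes made up 50% of it. Divided by total counts alone, the lower genes differed by -68542 (221576 ± 8474 in resupplied and 290119 ± 9226 in sufficient shoots) and the higher genes by 23410 (78361 ± 3272 in resupplied and 54951 ± 3904 in sufficient shoots). On that scale 10 genes made up 23.3% of the first difference and 7.45% of the second. Deficient shoots there summed to 226363 ± 4636 for the lower genes and 66924 ± 1486 for the higher ones. For the lower genes the deficient mean is thus above the resupplied one on total counts and below it with TMM. These genes were chosen by the difference they sum, so the sums describe it and do not test it.

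The 4 genes given next were taken from called genes that reached 10 CPM in the higher group and whose groups did not overlap, and their ranks hold within those. Among them the largest fall in CPM was that of Zm00004b036722, a shoot-preferring gene among the 100. It had 8542, 8632 and 8736 CPM in the resupplied libraries, 7606, 7619 and 7018 in the deficient ones and 13444, 12101 and 13163 in the sufficient ones. The 3 groups do not overlap, and resupplied plants stood a little above deficient ones and well below sufficient ones. Its log2 fold change was -0.58 ± 0.07 (SE, adjusted p = 0.000577, edgeR), against -0.80 ± 0.07 (adjusted p = 3.04e-05) for deficient over sufficient shoots, which makes it a remaining gene. The step between resupplied and deficient shoots, 0.22 ± 0.07, missed the threshold (adjusted p = 0.0607).

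Among such genes, Zm00004b024803 had the largest log2 fall. It had 2.01, 5.30 and 3.62 CPM in resupplied and 17.97, 16.7 and 17.9 CPM in sufficient shoots. The difference was -2.26 ± 0.54 on the log2 scale (SE, adjusted p = 0.022, edgeR), and the groups do not overlap. Deficient plants disagreed among themselves, with 26.6, 6.07 and 5.19 CPM, so the gene falls in no class. Its call was lost when resupplied library 1 or 3 was left out (adjusted p = 0.074 and 0.0869), and likewise for sufficient libraries 1 and 3 (0.0559 and 0.0576). It was also lost in a robust fit (0.116), and the change was negative each time.

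Among such genes, the largest log2 rise was that of Zm00004b006391, which belongs to the new class. It had 45.2, 29.9 and 27.002 CPM in resupplied shoots, 15.9, 16.1 and 9.37 in deficient ones and 10.7, 4.33 and 11.3 in sufficient ones. All resupplied libraries lay above all others, and the deficient and sufficient values overlapped. The log2 fold change was 1.96 ± 0.33 over sufficient shoots (SE, adjusted p = 0.00408) and 1.30 ± 0.32 over deficient shoots (adjusted p = 0.0247), while deficient over sufficient gave 0.65 ± 0.32 (adjusted p = 0.300, edgeR).

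The largest rise in CPM among such genes was smaller in proportion. Zm00004b033928, also among the 100, had 1208, 1208 and 1239 CPM in resupplied, 1135, 1173 and 1244 in deficient and 894, 1074 and 914 in sufficient shoots. The resupplied libraries lay above the sufficient ones and within the range of the deficient ones, and the log2 difference from sufficient shoots was 0.35 ± 0.08 (SE, adjusted p = 0.0169, edgeR). Resupplied over deficient gave 0.04 ± 0.08 (adjusted p = 0.823), and the gene was called in deficiency too (0.30 ± 0.08, adjusted p = 0.0421). Leaving out resupplied library 3 (0.0599) or sufficient library 1 or 3 (0.0697 and 0.0613) ended its call.

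**Figure D5:**
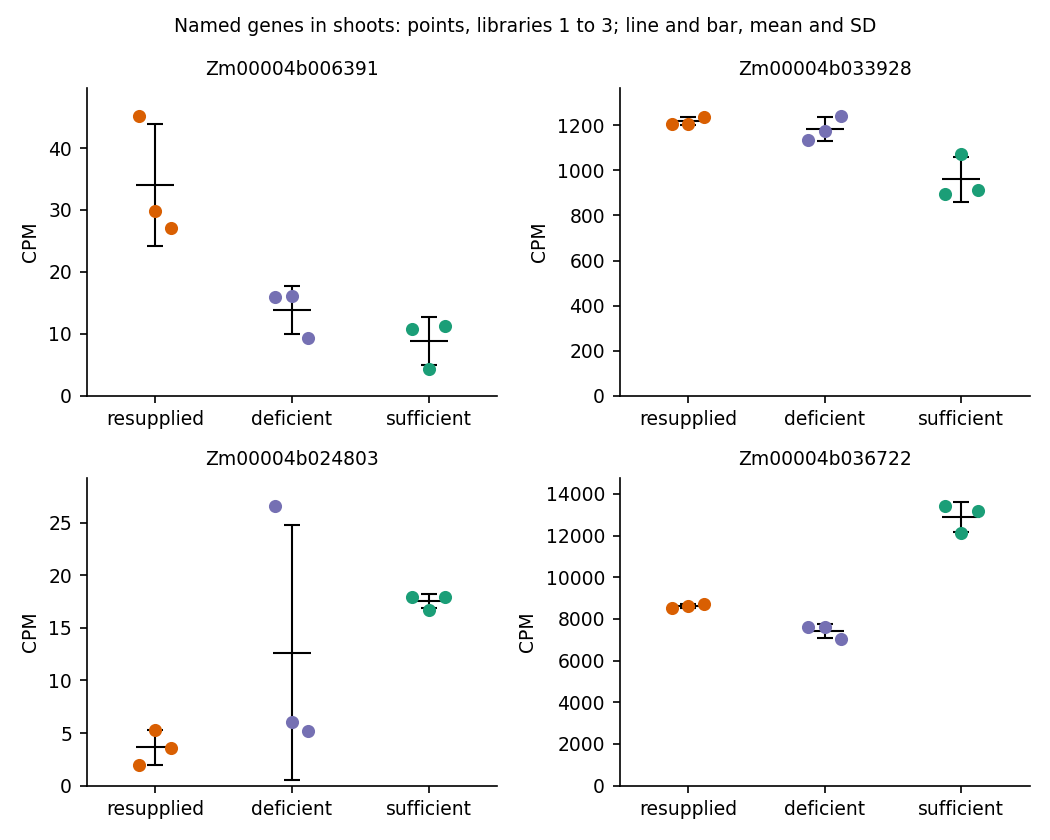
CPM (vertical axes, from 0) of the 4 named genes in resupplied, deficient and sufficient shoots (horizontal axes); points are libraries, lines and bars the mean and SD of 3. Zm00004b006391 is highest in the 3 resupplied libraries, and Zm00004b036722 lies at 8542 to 8736 CPM in resupplied against 12101 to 13444 CPM in sufficient shoots.

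Roots of the same treatments, in separate libraries, gave fewer calls. Resupplied and sufficient roots differed at 197 of 26577 genes, or 0.741%, with 0.640% higher and 0.102% lower. That total was 69 and 117 when resupplied root library 2 or 3 was left out, and 61, 75 and 121 for sufficient root libraries 1, 2 and 3. Of the shoot-higher genes tested in roots, 5 of 1049 (0.477%) were higher there too, which is near that background. Of the shoot-lower genes tested in roots, 12 of 1378 (0.871%) were also lower there, or 44.4% of the 27 genes lower in roots, and 27 (1.96%) were higher in roots, or 15.9% of the 170 genes higher in roots. None of the 12 prefers shoots. The 27 that went opposite ways had a median log2 fold change of -0.70 in shoots and 0.82 in roots. Both counts shrank with fewer root libraries. The 12 became 6, 3 and 7 when resupplied root library 1, 2 or 3 was left out, and 3, 4 and 4 for sufficient root libraries 1, 2 and 3. The 27 became 21, 6 and 12 for the resupplied root libraries and 6, 6 and 11 for the sufficient ones. Sufficient root library 3 is the one with 1.01% of counts in shoot-preferring genes, whose part in these counts was not tested beyond leaving it out. The 100 most abundant shoot genes had a median log2 fold change of -0.43 in roots, beside -0.38 in shoots. For shoot-preferring genes the medians were -0.14 in roots and -0.20 in shoots. Over all genes tested in shoots the root median was -0.002. A lower median of these 2 sets was thus not particular to shoots, and the part of that root library in it was not tested.

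The difference between the organs was tested over all 18 libraries as the shoot effect minus the root effect. It was called for 421 of 27914 genes (1.51%), 346 of them (1.24%) more negative and 75 (0.269%) more positive in shoots. Among the shoot-lower genes 229 of 1439 (15.9%) had a called difference in the same direction, and among the shoot-higher genes 42 of 1065 (3.94%); the shoot libraries enter both tests, which favours this. The 27 genes that were lower in shoots and higher in roots were all called here as well, but they were chosen for that difference on the same libraries of both organs, so this adds no evidence. The balance turns with scaling: on total counts 286 were more positive and 236 more negative. Leaving out resupplied shoot library 1, 2 or 3 gave 274, 255 and 215 calls, and leaving out sufficient shoot library 1 gave 256. The count was 251 for resupplied root library 2 and 274 for sufficient root library 2. For none of the 4 named genes was the organ difference called, with adjusted p of 0.0797 for Zm00004b006391, 0.278 for Zm00004b033928, 0.239 for Zm00004b024803 and 0.515 for Zm00004b036722 (edgeR).

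The authors' deposited table for resupplied against sufficient shoots lists 1715 genes higher and 2023 lower at an adjusted p under 0.05. It includes 1005 (94.4%) of the 1065 genes called higher here and 1390 (96.6%) of the 1439 called lower, which are 58.6 and 68.7% of the authors' lists, and 0 genes were called in opposite directions. In the authors' deposited table Zm00004b036722 has a log2 fold change of -0.56 (adjusted p = 1.24e-18), Zm00004b033928 one of 0.34 (9.11e-05) and Zm00004b006391 one of 0.80 (0.000701). Zm00004b024803 has 0.03 with an adjusted p of 0.884 in the authors' deposited table, so its call is not shared. DESeq2 run here on the deposited counts called it, at -2.26 with an adjusted p of 0.0104, and gave 1.96 for Zm00004b006391. For both genes the authors' deposited table thus differs from DESeq2 as well as from edgeR as run here, and the cause was not tested.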

How the data were processed

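RNA was sequenced from roots and shoots in 3 iron conditions, 3 libraries each. The authors deposited, per library, a table of estimated counts for 40690 genes; the values are whole numbers, so rounding changed none. Trim Galore, HISAT2, StringTie and DESeq2 are named, without versions, in the submitters' processing notes; neither build nor annotation is given in the sources used here. In the files, 31.4 to 35.4% of values from 2 to 33 are multiples of 4, where 25% would be with no pile-up, so counts may overstate fragments; an alternative divides them by 4. The authors' DESeq2 table for the comparison holds, per the file headers, a base mean (a normalised signal), a log2 fold change, its standard error and a Wald score, and a p-value and adjusted p-value.

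Counts were fitted with edgeR 4.0.16 in R 4.3.3 (TMM, filterByExpr, quasi-likelihood F-test, group as the only term) over the 9 libraries of an organ, or all 18 for the organ difference. Standard errors were derived from the F statistic. CPM values were scaled by TMM over 18 libraries. Shares of counts use unscaled counts. DESeq2 1.42.0 was an alternative, as were other scalings, filters, a robust fit, a replicate block, the 6 libraries alone and each library left out. The edgeR test of resupplied against sufficient shoots was tried on simulated counts with 2-fold and 4-fold changes. The permutation test was tried on made-up values. Smaller changes, the classes, the gene groups, the root contrast and the organ difference were not simulated. P-values measure only the spread between these libraries; the labels do not say what separates the biological replicates.

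The 4 named genes are, in each direction, the largest log2 fold change and the largest CPM difference among called genes that reached 10 CPM in the higher group and whose groups did not overlap. Lists of gene names could not be used for want of names. The comparison, classes, gene groups and rules were chosen with earlier results of these data known.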

Additional observations from a re-analysis of the deposited data

Results flagged for a closer look

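The effect of resupply over sufficient iron differed between shoots and roots at 421 of 27914 genes by the test of the difference itself (edgeR, adjusted p under 0.05), with 75 more positive and 346 more negative in shoots.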

How the results depend on the processing

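Between resupplied and sufficient shoots, RLE scaling, 2 other filters, a robust fit, counts divided by 4, the 6 libraries alone and DESeq2 kept the number of calls within 1.5 times of 2504, and an adjusted p under 0.01 gave 832. That threshold left 146 remaining and 260 new genes. DESeq2 gave 913 remaining and 1200 new genes, 2451 calls in deficient shoots, 631 in roots and 1258 for the organ difference. Total-count scaling gave 3808 calls in deficient shoots, 3178 higher and 630 lower, and 1410 remaining genes. The labels do not say that a replicate number marks shared plants. Among shoot libraries, 2 of 9 same-numbered pairs had deviations correlated above 0.1. In 8 of 18 cases a library correlated best with its own number in another group, and some such cases arise without any pairing. Same-numbered pairs ranged from -0.107 to 0.138 and differently numbered ones from -0.154 to 0.138, so these values do not settle whether numbers mark a batch. A replicate block gave 2564 calls for resupplied against sufficient shoots and 305 for the organ difference; in roots it gave 131.

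Leaving out 1 library gave 1102 to 3032 calls for resupplied against sufficient shoots, 807 to 1675 for deficient against sufficient and 1272 to 1586 for resupplied against deficient shoots. It gave 222 to 774 remaining and 342 to 849 new genes, 61 to 195 calls in roots and 215 to 487 for the organ difference. Lower shoot-preferring genes numbered 268 to 455, lower genes among the 100 most abundant 50 to 59, and 2-fold calls 129 to 257. The share of the 100 most abundant genes stayed lower in resupplied shoots, by -3.68 to -4.23 percentage points, and was -4.36 for 200 genes. The alternatives for gene groups, 2-fold calls and genes shared with roots were chosen after seeing the data. Each named gene kept the sign of its fold change in these settings. But total-count scaling turned the balance of higher and lower calls for resupplied against sufficient shoots and for both other shoot contrasts. It also turned the balance for remaining genes, for 2-fold calls and for the organ difference. Summed levels on total counts were also added after seeing the data. What limits the calls at low CPM was not tested.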

Other observations

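A few genes had counts in 1 of the groups only. In shoots 7 genes had 0 counts in all 3 sufficient libraries and at least 10 in each resupplied library, and 2 genes had 0 in all 3 resupplied libraries and at least 10 in each sufficient library. None of the called genes with a group at 0 exceeded 1.12 CPM on average in the other group.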
